A study of Mus musculus with 12 samples.

Results

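The STAT genes counted here were Stat2, Stat3, Stat4, Stat5a, Stat5b and Stat6, 6 of the 37991 Ensembl identifiers in the count table, chosen by symbol. All 6 passed the filter on low counts that left 13538 genes for testing. RNA-seq had been carried out on resting B cells purified from mouse spleen by a negative selection that removes other cell types and CD43+ activated B cells. Cells came from 8-week-old mice and were taken at 0 h or after 3 h with anti-IgM, which cross-links the B cell receptor (BCR), plus the cytokine IL-4. Cre-only mice carried the CD23-iCre transgene alone, and Runx1 c-k/o mice carried the same transgene with the floxed Runx1 alleles, so that both genotypes express Cre. CD23 promoter-driven Cre is first expressed at the transitional B cell stage, so the deletion is not limited to the period of the experiment, and it removes exon 4 of Runx1. There were 3 samples in each of the 4 groups, 12 in all.

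STAT proteins lie latent in the cytoplasm until a cytokine receptor is engaged. Janus kinases (JAKs) bound to the receptor chains then phosphorylate the STAT, which dimerizes, enters the nucleus and binds DNA. IL-4 acts mainly through STAT6, the common gamma chain cytokines IL-2, IL-7 and IL-9 through STAT5A and STAT5B, IL-6, IL-10 and IL-21 through STAT3, IL-12 through STAT4, and type I interferon through STAT2, which joins IRF9 in the complex ISGF3. Signalling is carried by phosphorylation, whereas the values reported are mRNA levels of the genes.

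Runx1 itself was at 81.8 to 86.7 CPM (counts of a gene scaled to the normalized library total) in Cre-only cells at rest, and at 95.7 to 103 in the knockout at rest. The counts span the whole gene rather than exon 4, so they do not check the deletion. At 3 h Runx1 was at 34.9 to 38.5 CPM in Cre-only and 47.3 to 74.5 in Runx1 c-k/o samples, a log2 fold change of 0.80 (edgeR adjusted p = 0.00769). Library totals ran from 14442251 to 23641552 counts, and the smallest count of any STAT gene in any sample was 433, for Stat4. Pan-B cell markers were high in every library, with a summed level of at least 5153 CPM over 8 genes. Runx1 c-k/o libraries varied more within their groups than Cre-only libraries. The root mean square deviation from the group mean, on the log2 scale over all tested genes, was 0.181 to 0.223 in Cre-only libraries, 0.218 to 0.327 in Runx1 c-k/o libraries at rest and 0.294 to 0.412 at 3 h. The farthest from their group at each time were replicate 2 at rest (0.327) and replicate 1 at 3 h (0.412), and replicate 2 at 3 h (0.328) deviated as much as the former. In the farthest resting library the cytokine-induced genes Cish, at 19.1 CPM, and Il2ra, at 39.4 CPM, were far above the other resting Runx1 c-k/o samples, which reached at most 2.39 and 4.69. Values without the farthest library of each time are given where they change a call of a STAT gene, and beside some other results.

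The family occupies 3 chromosomes in mm9. Stat2 (ENSMUSG00000040033) lies on the plus strand of chromosome 10 from 127707629 to 127729905, and Stat6 (ENSMUSG00000002147) on the same strand from 127080042 to 127098013. Stat4 (ENSMUSG00000062939) is on the plus strand of chromosome 1 from 52043992 to 52164032. On chromosome 11 the remaining members form a cluster, with Stat5b (ENSMUSG00000020919) on the minus strand from 100642045 to 100712038, Stat5a (ENSMUSG00000004043) on the plus strand from 100720665 to 100746483 and Stat3 (ENSMUSG00000004040) on the minus strand from 100746412 to 100800854. Stat5b and Stat5a thus face away from each other across 8626 bases, and the 3′ ends of Stat5a and Stat3 overlap by 72 exonic bases on opposite strands. Stat5a and Stat5b are close paralogues: 14.7% of the distinct 50-base stretches in annotated Stat5a transcripts also occur in Stat5b, and 11.1% of those of Stat5b in Stat5a. Reads from these stretches could be divided between them, so the split between the 2 genes is less certain than the other values.

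Promoters of the paralogues also share sequence. The RefSeq promoters shown (GRCm38.p6, from 250 bases before to 50 after an annotated start) are the second of Stat5a, chr11:100860234-100860533 on the plus strand, and the second of Stat5b, chr11:100822521-100822820 on the minus strand. They are shown because the stretch in capitals, 16 bases long, is the longest run shared between promoters of different members, and begins 32 bases before the start in Stat5a and 23 before it in Stat5b.
Stat5a promoter 2: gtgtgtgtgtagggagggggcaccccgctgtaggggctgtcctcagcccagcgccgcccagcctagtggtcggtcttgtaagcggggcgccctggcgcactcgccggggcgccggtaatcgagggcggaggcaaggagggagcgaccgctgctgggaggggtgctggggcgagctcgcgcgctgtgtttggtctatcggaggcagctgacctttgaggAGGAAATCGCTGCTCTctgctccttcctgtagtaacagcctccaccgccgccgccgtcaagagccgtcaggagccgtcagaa
Stat5b promoter 2: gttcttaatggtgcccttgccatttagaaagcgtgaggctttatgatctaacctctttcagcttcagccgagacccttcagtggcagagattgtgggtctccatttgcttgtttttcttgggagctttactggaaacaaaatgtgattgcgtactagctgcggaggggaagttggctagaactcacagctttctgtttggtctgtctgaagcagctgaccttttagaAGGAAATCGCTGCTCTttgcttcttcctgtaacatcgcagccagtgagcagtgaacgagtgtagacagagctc

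The promoters were searched on both strands for TGTGGT, the core letters of the RUNX motif, for TTCNNNGAA, the STAT motif, and for GAAANNGAA, the core of the interferon response motif. No match in a member overlapped another. TGTGGT occurred in at least 1 promoter of 3 of the 6 members (Stat2, Stat5a and Stat6), and in at least 1 promoter of 18.9% of the 27025 genes in the table. GAAANNGAA occurred in Stat2 and Stat4, and in 9.76% of all genes. No member had TTCNNNGAA in these windows, and 9.55% of all genes did. Among the 8817 of these genes that were also tested for expression, the shares were 15.8% for TGTGGT, 8.97% for GAAANNGAA and 8.69% for TTCNNNGAA. The promoters of Stat4, the member that differed between genotypes at rest, and of Stat2 and Stat5a, which moved in opposite directions on activation, are shown with every match in capitals. They are the first of Stat4 at chr1:51986898-51987197 and the second at chr1:52007990-52008289, that of Stat2 at chr10:128270248-128270547 and the first of Stat5a at chr11:100859406-100859705, all on the plus strand of GRCm38.p6.
Stat4 promoter 1: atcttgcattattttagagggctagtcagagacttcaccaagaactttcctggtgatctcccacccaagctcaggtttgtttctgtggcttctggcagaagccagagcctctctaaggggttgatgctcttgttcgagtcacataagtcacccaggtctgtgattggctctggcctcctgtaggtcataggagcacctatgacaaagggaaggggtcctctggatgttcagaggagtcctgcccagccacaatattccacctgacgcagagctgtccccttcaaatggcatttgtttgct
Stat4 promoter 2: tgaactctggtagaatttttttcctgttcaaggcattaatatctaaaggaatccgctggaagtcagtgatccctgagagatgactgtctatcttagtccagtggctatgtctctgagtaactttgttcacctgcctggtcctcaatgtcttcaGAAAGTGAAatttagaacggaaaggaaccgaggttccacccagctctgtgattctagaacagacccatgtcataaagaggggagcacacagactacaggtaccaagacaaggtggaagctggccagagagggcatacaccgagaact
Stat2 promoter: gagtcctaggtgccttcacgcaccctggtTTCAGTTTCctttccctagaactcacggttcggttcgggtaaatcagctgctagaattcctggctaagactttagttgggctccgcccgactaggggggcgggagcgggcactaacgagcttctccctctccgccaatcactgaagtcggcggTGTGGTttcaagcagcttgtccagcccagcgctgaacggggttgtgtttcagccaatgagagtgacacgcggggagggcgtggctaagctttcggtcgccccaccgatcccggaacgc
Stat5a promoter 1: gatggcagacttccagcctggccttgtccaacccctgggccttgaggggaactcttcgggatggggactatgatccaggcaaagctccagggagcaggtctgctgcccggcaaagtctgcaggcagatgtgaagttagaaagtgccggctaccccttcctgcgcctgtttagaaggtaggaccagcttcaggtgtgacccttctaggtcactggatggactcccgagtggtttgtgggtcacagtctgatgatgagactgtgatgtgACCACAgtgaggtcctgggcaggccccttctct

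The first Stat4 promoter held none of the 3 motifs, and the second held GAAAGTGAA beginning 97 bases before the start. In Stat2, TGTGGT began 68 bases before the start, and the interferon response letters, read on the opposite strand, 221 bases before it. The first Stat5a promoter held TGTGGT on the opposite strand, within the transcribed part of the window from base 18. A match is a description of the letters and not evidence of binding.

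In resting Cre-only cells Stat6 had the highest level per kilobase of exon, and Stat5a the lowest. Dividing normalized CPM by the length of the union of exons gave 57.3 ± 0.907 CPM per kilobase for Stat6, 26.7 ± 1.61 for Stat2, 21.9 ± 0.413 for Stat5b, 19.2 ± 0.995 for Stat3, 16.3 ± 1.04 for Stat4 and 6.32 ± 0.169 for Stat5a (SD, n = 3). No 2 neighbours in this order overlapped. Stat6, the main IL-4 effector, made up 38.8% ± 0.462 of the summed level of the 6 genes (SD, n = 3). Resting Runx1 c-k/o cells had the same order, but Stat2 overlapped Stat5b, Stat5b overlapped Stat3, and Stat4, at 10.3 ± 0.988, overlapped Stat5a, at 7.26 ± 2.2 CPM per kilobase.

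After 3 h the order had changed. In Cre-only cells Stat6, at 96.4 ± 1.96 CPM per kilobase, and Stat3, at 93.1 ± 10.1, overlapped at the top, and were followed by Stat5a at 52.8 ± 2.28, Stat5b at 34.5 ± 1.58, Stat4 at 24.8 ± 3.54 and Stat2 at 15.8 ± 1.11 (SD, n = 3). Stat5a had therefore moved from the lowest place to the third, and Stat2 from the second to the lowest. The same order held in Runx1 c-k/o cells, where Stat6, at 91.8 ± 2.84 CPM per kilobase, no longer overlapped Stat3, at 68.4 ± 3.25, and Stat4 overlapped Stat2. The summed level of the 6 genes went from 148 ± 4.02 to 318 ± 12.9 CPM per kilobase in Cre-only cells and from 141 ± 4.21 to 270 ± 13.1 in Runx1 c-k/o cells. These orders depend on the length used. With the longest transcript in place of the union of exons, Stat3 stood second in both genotypes at rest and first in both at 3 h, at 147 ± 15.9 CPM per kilobase in Cre-only cells and 108 ± 5.12 in Runx1 c-k/o cells, where it overlapped Stat6 at 107 ± 3.31, and resting Runx1 c-k/o Stat5a lay above Stat4.

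**Figure D1:**
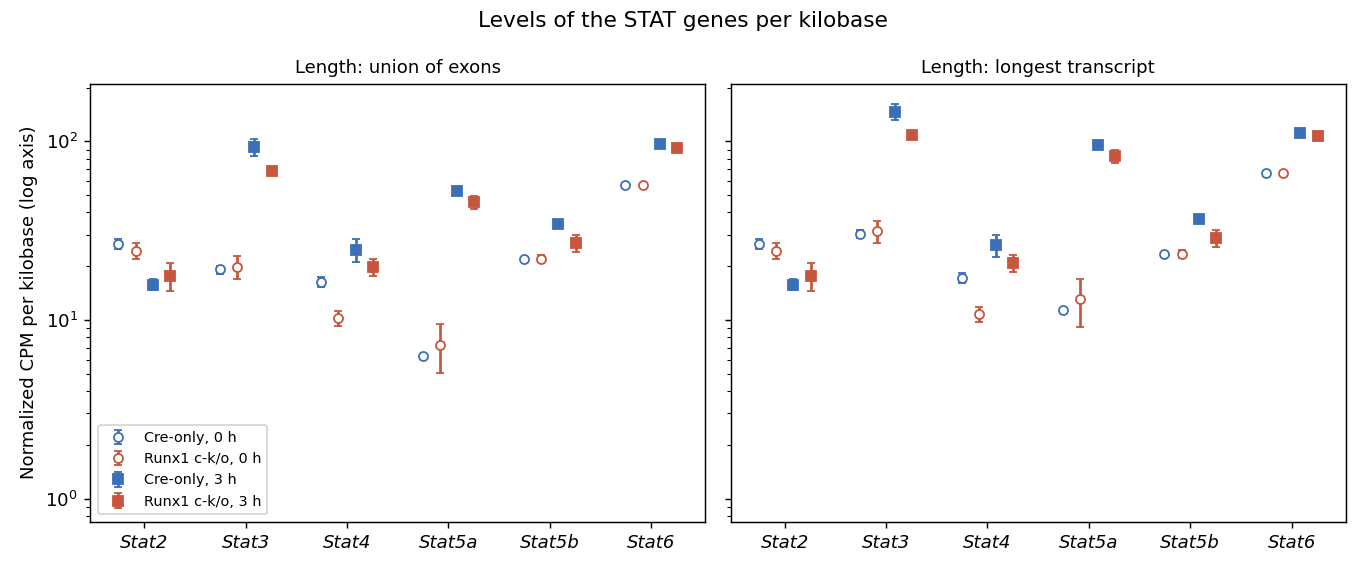
Mean level of each STAT gene in normalized CPM per kilobase (log axis, error bars SD, n = 3) for the 4 groups, with the union of exons as the length on the left and the longest transcript on the right. With exon-union length, Stat6 is the highest at rest and Stat5a the lowest, while at 3 h Stat3 comes level with Stat6 in Cre-only cells.

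The first question was how the family responds to BCR and IL-4 stimulation in cells with intact Runx1. In Cre-only cells all 6 genes changed by edgeR's quasi-likelihood test, where 75.0% of the genes tested did. Of the 6 members, 5 rose, against 38.6% of all tested genes, and 1 fell, against 36.4%. Since most genes changed at 3 h, a call alone says little about the family, and the sizes of the changes are the main content. The median log2 fold change of the 6 genes was 0.70, and that of all tested genes 0.03.

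Stat5a, which transmits IL-2 and IL-7 signals, had the largest rise of the 6. Its normalized CPM was 45.3, 43.8 and 46.2 in Cre-only samples at rest, and 383, 389 and 358 at 3 h. Every activated sample lay far above every resting one. The rise was 8.36-fold (95% CI 6.44 to 10.8; log2 fold change 3.06, SE 0.172, edgeR adjusted p = 2.6e-08), and only 1.54% of tested genes had a log2 fold change at or above it. In Stat5b, its paralogue, values went from 124, 122 and 119 to 199, 194 and 182 CPM. These groups did not overlap either, but the rise was 1.57-fold (95% CI 1.38 to 1.8; log2 fold change 0.65, SE 0.0882, edgeR adjusted p = 2.39e-05).

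Stat3 encodes the effector of IL-6, IL-10 and IL-21, cytokines that drive plasma cell formation. It went from 172, 190 and 187 CPM in resting Cre-only cells to 793, 985 and 884 at 3 h. The rise was 4.86-fold (95% CI 4.03 to 5.85; log2 fold change 2.28, SE 0.123, edgeR adjusted p = 2.2e-08), a size that 4.34% of tested genes reached. Stat6 was the steadiest between replicates, at 248, 254 and 255 CPM at rest and 427, 431 and 415 after 3 h. It rose 1.68-fold (95% CI 1.51 to 1.88; edgeR adjusted p = 1.39e-06).

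Stat4, best known from T and NK cells, where it carries the IL-12 signal, was counted at 47.5, 52.0 and 53.9 CPM at rest and 65.7, 81.1 and 87.4 at 3 h, with no overlap. The 1.53-fold rise had a log2 fold change of 0.61 (SE 0.123, edgeR adjusted p = 0.000628), and fell to 0.35 with an adjusted p of 0.0827 when 1 RUVs factor of unwanted variation was added to the edgeR model. Stat2 alone went down, from 110, 118 and 125 CPM to 68.3, 65.5 and 75.0. Its log2 fold change was -0.76 (SE 0.128, edgeR adjusted p = 0.000166), and -0.29 (adjusted p = 0.0473) with the RUVs factor.

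In Runx1 c-k/o cells the same 6 genes changed in the same directions, against 74.3% of all tested genes that changed, 37.7% that rose and 36.6% that fell. Stat5a went from 41.2, 69.8 and 44.4 CPM to 315, 307 and 358. The sample at 69.8 is replicate 2, the farthest resting library, and all activated samples were higher still. The rise was 6.31-fold (95% CI 4.88 to 8.15; log2 fold change 2.66, SE 0.17, edgeR adjusted p = 7.29e-08), and the log2 fold change was 2.94 without that library. Stat3 followed the same pattern, from 183, 219 and 166 CPM to 638, 629 and 687, with replicate 2 again the highest at rest. It rose 3.44-fold (95% CI 2.86 to 4.13; log2 fold change 1.78, SE 0.121, edgeR adjusted p = 1.06e-07), with a log2 fold change of 1.91 without that library.

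The other members moved less. Stat6 went from 250, 254 and 252 CPM to 393, 402 and 417, a 1.6-fold rise (95% CI 1.44 to 1.79; edgeR adjusted p = 3.47e-06). Stat4 went from 34.6, 33.4 and 28.7 CPM to 70.0, 56.6 and 60.3, a 1.93-fold rise (95% CI 1.6 to 2.33; edgeR adjusted p = 2.06e-05), and groups of both genes were fully separated. Stat5b, from 124, 116 and 128 CPM to 135, 148 and 167, had the smallest rise, 1.22-fold (95% CI 1.07 to 1.4; log2 fold change 0.29, edgeR adjusted p = 0.00941). That call was lost with no filter on low counts (adjusted p = 0.0502), with at least 10 counts required in every sample (0.0786), and when only the 2 groups compared were fitted (0.0815), all by edgeR. Stat2 again went down, from 120, 99.4 and 103 CPM to 61.9, 88.2 and 83.9. Its log2 fold change of -0.46 (SE 0.128, edgeR adjusted p = 0.00574) came to 0.00 with the RUVs factor, so the fall in Runx1 c-k/o cells did not hold under that model. CPM is relative to the library, so these are changes in share of mRNA, and in bulk samples fewer cells expressing a gene and less RNA per cell cannot be told apart. Monocyte and macrophage markers moved with activation too, from 408 to 901 CPM summed over 9 genes in the resting samples of both genotypes to 33 to 101 at 3 h. NK cell markers went down as well, from 10.9 to 15.9 CPM over 7 genes at rest to 2.29 to 6.82 at 3 h over both genotypes. The sum over 9 T cell markers went up, from 37.3 to 43.8 CPM at rest to 66.2 to 72.4 at 3 h in Cre-only samples. In Runx1 c-k/o samples it was 31.3 to 44 CPM at rest and 67 to 86 at 3 h. Lck was the largest part in every sample and nearly all of the rise, from 33 to 36.4 CPM to 63.3 to 67.8 in Cre-only samples. Cd4 fell, from 1.88 CPM or more in every resting sample to 0.518 or less in every activated one. Cd3e, Cd3d and Cd3g reached at most 0.41, 0.675 and 0.819 CPM in any sample. The part of these markers in the changes of the STAT genes was not tested.

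**Figure D2:**
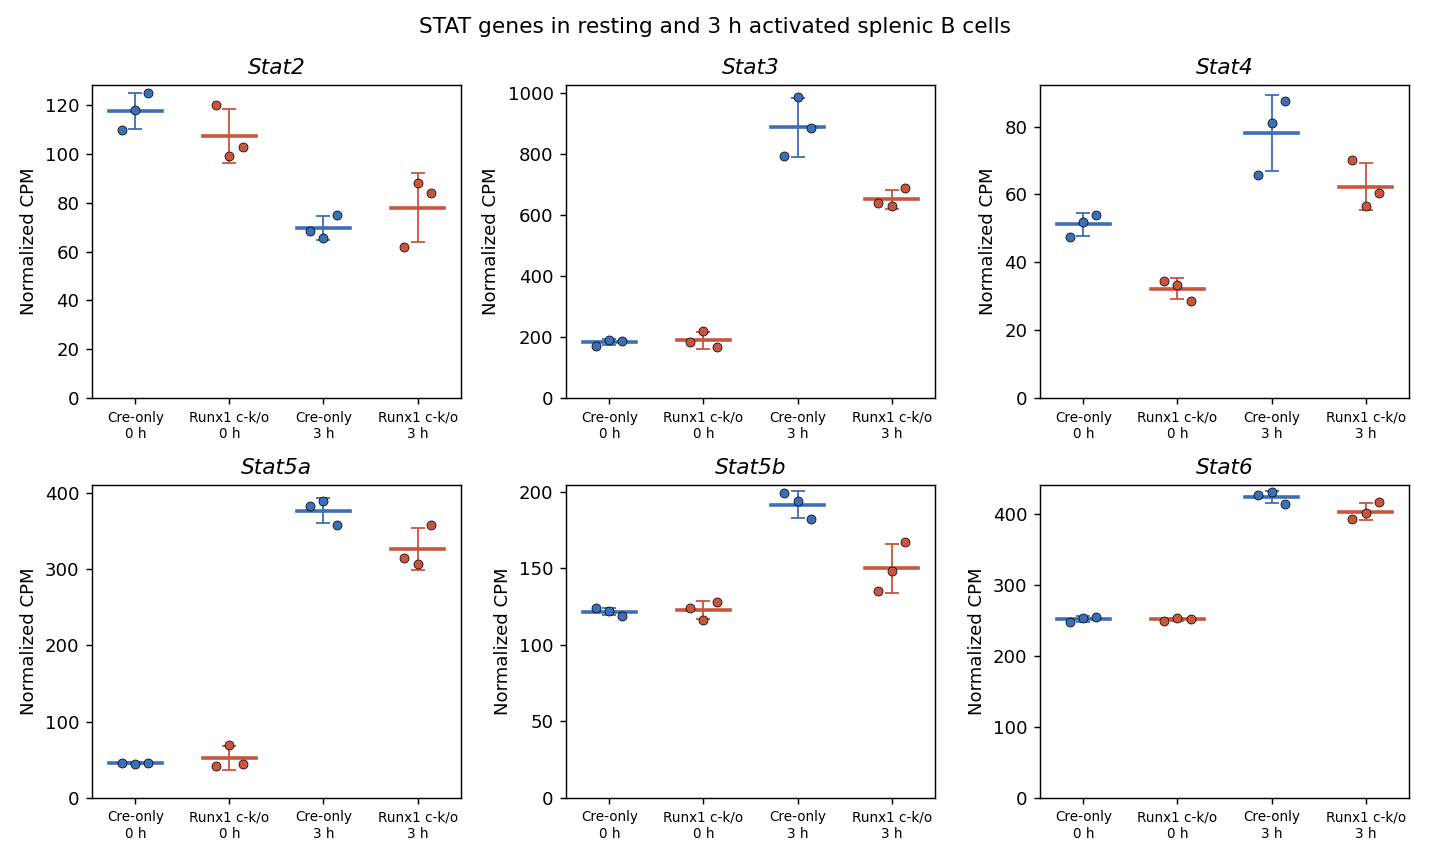
Normalized CPM of each STAT gene in the 12 samples (points), with the mean (bar) and SD (error bar, n = 3) of each group, on axes that start at 0. Stat5a and Stat3 rise most at 3 h, Stat2 falls in both genotypes, and Stat4 at rest is lower in all 3 Runx1 c-k/o samples than in any Cre-only sample.

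The next comparison asked whether loss of Runx1 alters the family in resting cells. Stat4 alone passed the test, 1 of 6 members where 1.49% of tested genes were called. Its values, 34.6, 33.4 and 28.7 CPM in Runx1 c-k/o cells, were all under the lowest Cre-only sample at 47.5. It was also the only member whose groups did not overlap, as 23.7% of tested genes did not. The log2 fold change was -0.66 (95% CI -0.94 to -0.39; SE 0.125, edgeR adjusted p = 0.0204), or 1.58-fold lower.

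The call on Stat4 was narrow. It held in 9 of 14 alternative settings, DESeq2 (adjusted p = 0.000364) and RUVs included, and without Runx1 c-k/o replicate 2 (0.045). It was lost when any 1 of the 3 Cre-only samples was left out (adjusted p = 0.0539, 0.1 and 0.0983 without replicates 1, 2 and 3), without Runx1 c-k/o replicate 3 (0.109), and with replicate number as a block (0.0624), although the numbers do not pair the genotypes. Over all alternatives the log2 fold change stayed between -0.72 and -0.59. Markers of the cells best known for Stat4 did not separate the genotypes. Of 9 T cell markers 4 passed the filter on low counts, and their summed level was 37.3 to 43.8 CPM in Cre-only and 31.3 to 44 in knockout samples at rest. Nearly all of it was Lck, at 26.4 CPM or more in every sample. Cd3e, Cd3d and Cd3g, which define T cells, reached at most 0.41, 0.675 and 0.819 CPM in any sample. Of 7 NK cell markers 6 passed, with sums of 10.9 to 15.9 CPM in Cre-only and 12.2 to 14.3 in Runx1 c-k/o samples, and the NK receptor gene Ncr1 reached at most 0.469. Among B cells at rest, 5 marginal zone markers summed to 1112 to 1427 CPM in Cre-only and 1607 to 1733 in knockout samples, without overlap. Most of this was Cr2, also counted among the pan-B cell markers, at 818 to 1075 CPM in Cre-only and 1225 to 1411 in knockout samples. Cd9 was likewise higher in every knockout sample, whereas Cd1d1, Dtx1 and S1pr3 overlapped. The part of these markers in the Stat4 difference was not tested.

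The other 5 genes overlapped between genotypes at rest. Stat6 had 95% limits of -0.16 and 0.16 on its log2 fold change and Stat5b of -0.18 and 0.20, so differences beyond about these sizes lie outside the intervals. Those of Stat2 (-0.41 to 0.15), Stat3 (-0.21 to 0.31) and Stat5a (-0.16 to 0.55) were wider. Without the resting replicate 2, Stat5a changed sign, from 0.20 to -0.08, and Stat3 from 0.05 to -0.07. Neither passed the test in any setting.

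At 3 h no member passed an adjusted p of 0.05 in edgeR, where 2.77% of tested genes did. At an unadjusted p under 0.05 there were 3, namely Stat3, Stat4 and Stat5b, where 16.2% of tested genes were, and DESeq2 called 2 members and 5.24% of tested genes. The groups of 3 members, Stat3, Stat5a and Stat5b, did not overlap, as was true of 21.8% of tested genes. Stat3 was at 638, 629 and 687 CPM in activated Runx1 c-k/o cells, and at 793 or more in every activated Cre-only sample. The log2 fold change was -0.45 (95% CI -0.70 to -0.19; SE 0.118, edgeR adjusted p = 0.0729). It passed in 3 of 14 alternatives, DESeq2 (-0.40, adjusted p = 0.0124), the RUVs factor (-0.47, adjusted p = 0.00901) and the set without both of the farthest libraries (-0.41, adjusted p = 0.00478). It was not called when any 1 activated sample was left out (edgeR adjusted p = 0.0615 to 0.28). Nor was it called when only the 2 groups compared were fitted (edgeR adjusted p = 0.17).

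For Stat5b the activated Runx1 c-k/o samples, at 135, 148 and 167 CPM, were below the lowest Cre-only sample at 182. The log2 fold change was -0.35 (95% CI -0.54 to -0.16; SE 0.0879, edgeR adjusted p = 0.0567). DESeq2 (adjusted p = 0.00535), the RUVs factor (0.00627), the set without both of the farthest libraries (0.0115) and the set without replicate 3 of the activated Runx1 c-k/o cells (0.0185) each called it. These were 4 of 14 alternatives, and with only the 2 groups compared it was not called (edgeR adjusted p = 0.251). In Stat5a the separation was narrow, with a highest Runx1 c-k/o sample of 358 CPM beside a lowest Cre-only sample that also rounds to 358, and a log2 fold change of -0.21 (95% CI -0.55 to 0.14; edgeR adjusted p = 0.509). Stat4 overlapped at 3 h, with 56.6 to 70.0 CPM in Runx1 c-k/o and 65.7 to 87.4 in Cre-only samples (log2 fold change -0.33, edgeR adjusted p = 0.219), and was called with the RUVs factor alone (adjusted p = 0.0328).

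Stat6 was nearly level between genotypes at 3 h, with a log2 fold change of -0.07 (95% CI -0.23 to 0.09). Stat2 differed by 0.16 (95% CI -0.11 to 0.44; edgeR adjusted p = 0.514). Its activated Runx1 c-k/o replicates 2 and 3, at 88.2 and 83.9 CPM, were above every Cre-only sample, whereas replicate 1, at 61.9, was below them all. Without both of the farthest libraries, Stat2 was higher in Runx1 c-k/o cells by 0.33 on the log2 scale (edgeR adjusted p = 0.0151), the only 1 of 14 alternatives to call it. The 5 marginal zone markers summed to 2325 to 2614 CPM in activated Cre-only and 2649 to 3325 in activated Runx1 c-k/o samples. Most of this was again Cr2, at 1913 to 2181 CPM in Cre-only and 2271 to 2956 in Runx1 c-k/o samples. Cd9 was also higher in every Runx1 c-k/o sample, Dtx1 and S1pr3 were lower in every one, and Cd1d1 overlapped. The part of these markers in the differences at 3 h was not tested.

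Whether activation itself differed between genotypes was tested by the interaction of genotype and time. No member passed an adjusted p of 0.05 in edgeR or DESeq2, which called 0.0813% and 0.613% of all tested genes. At an unadjusted p under 0.05 there were 2 members, and 5.07% of tested genes. These were Stat3, whose log2 rise was smaller in Runx1 c-k/o cells by 0.50 (log2 difference -0.50, 95% CI -0.86 to -0.13; edgeR adjusted p = 0.688), and Stat5b (-0.36, 95% CI -0.63 to -0.09; edgeR adjusted p = 0.7). The differences for Stat4 (0.34), Stat2 (0.29), Stat5a (-0.41) and Stat6 (-0.07) had intervals that span 0. The Stat5a difference shrank to -0.13 without replicate 2 of the knockout at rest and to -0.09 without both of the farthest libraries, and that of Stat2 grew to 0.47 without replicate 1 of the knockout at 3 h (edgeR adjusted p = 0.291). By this test a smaller induction of any member in Runx1 c-k/o cells was not shown.

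**Figure D3:**
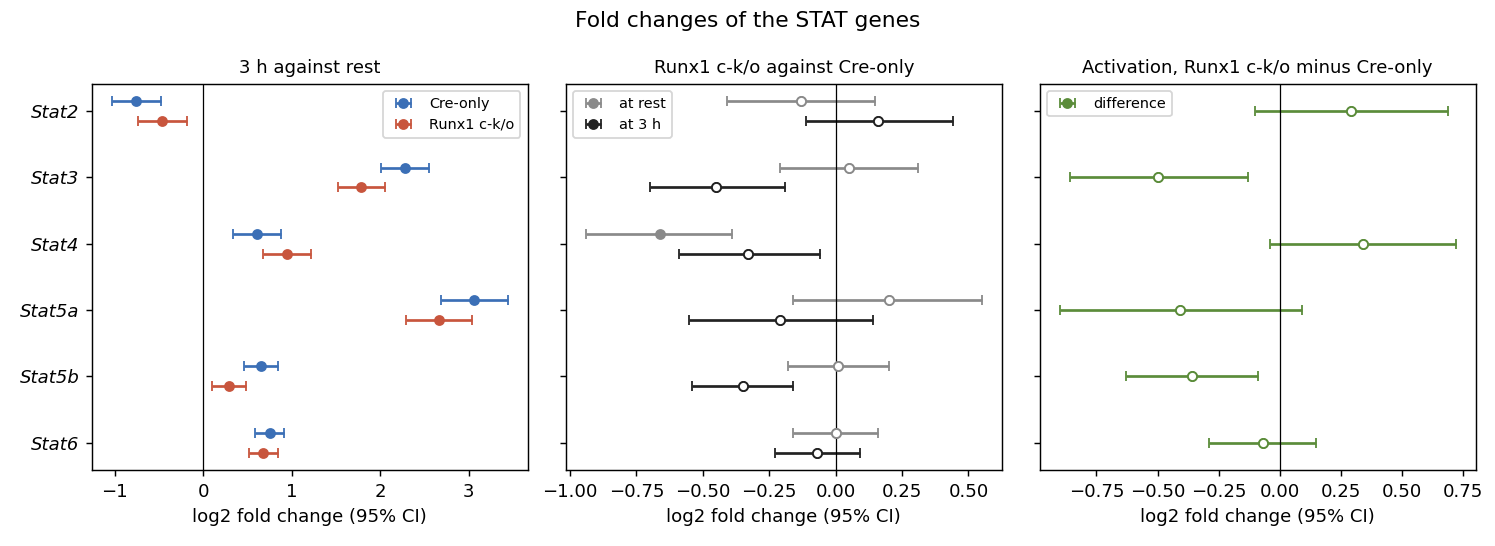
log2 fold changes of the STAT genes with 95% confidence intervals for activation in each genotype (left), for the knockout relative to Cre-only at rest and at 3 h (middle) and the difference of the 2 activation responses (right). Filled points have an edgeR adjusted p under 0.05: all 12 on the left, Stat4 at rest alone in the middle, and none on the right.

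The genes whose profile over the 12 samples was most like each member were named by the smallest root mean square difference of centred log2 CPM. Stat6 had the closest neighbours, Wdr33 (0.030), BC046331 (0.036) and Nmt2 (0.040). For Stat5b they were Adam10 (0.068), Npepps (0.068) and D6Wsu116e (0.072), and for Stat5a Iars (0.084), 1300001I01Rik (0.088) and Fitm2 (0.098). Stat2 was nearest to Zufsp (0.105), Tyms (0.106) and Plekhb2 (0.110), and Stat3 to Syncrip (0.122), Slc7a6 (0.124) and Fubp1 (0.124). Stat4 had the least close match, with Hspbap1 (0.143), Zfp874a (0.169) and AI480653 (0.187). No member was among the 3 genes nearest to another. Among genes beside the members, Nab2, which overlaps the 3′ end of Stat6 by 40 exonic bases on the opposite strand, rose on activation as Stat6 did, by 1.95 on the log2 scale in Runx1 c-k/o cells (edgeR adjusted p = 4.16e-07). Apof, 421 bases from Stat2 and at most 1.54 CPM in any sample, fell as Stat2 did, with a log2 fold change of -1.81 in Cre-only cells (edgeR adjusted p = 0.00846). Ghdc, 9773 bases beyond Stat5b, fell by 1.56 in Runx1 c-k/o cells (edgeR adjusted p = 3.95e-06), while Stat5b rose. Lrp1, 21837 bases from Stat6 on the side away from Nab2, fell by 4.32 in Cre-only cells (edgeR adjusted p = 9.26e-06), while Stat6 rose. If strand was ignored in counting, reads from the overlapping ends cannot be told apart.

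The kinases and receptors that act before STATs were compared as listed genes. Of 4 JAK kinases, 3 fell on activation in each genotype, where 36.4% of all tested genes fell in Cre-only cells and 36.6% in the knockout. Jak2 rose by 0.33 on the log2 scale in Cre-only cells (edgeR adjusted p = 0.00715) and was at 0.18 in the knockout (0.107). Tyk2, which serves the interferon and IL-12 receptors, fell by 0.93 on the log2 scale in Cre-only cells and by 1.09 in the knockout (edgeR adjusted p = 2.58e-06 and 8.49e-07). Jak3, the partner of the common gamma chain, fell by 0.77 and 1.10. At 3 h Tyk2 was at 33.6, 41.7 and 43.3 CPM in Runx1 c-k/o and 55.4, 51.7 and 51.9 in Cre-only cells. The groups were separate, and the log2 fold change was -0.42 (SE 0.0978, edgeR adjusted p = 0.0405), the only genotype call among the JAK kinases, and 1 made in 4 of 14 alternatives.

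Of 34 cytokine receptor chains 29 were tested. On activation 12 rose and 10 fell in Cre-only cells, while in the knockout 11 rose and 11 fell. Of all tested genes, 38.6% rose and 36.4% fell in Cre-only cells, and 37.7% and 36.6% in the knockout. The counts of the receptor chains thus lay near the shares over all genes. Il15ra, the IL-15 receptor alpha chain, rose by 1.81 and 1.97 on the log2 scale, whereas Il27ra went down (-1.90 and -1.73) and so did the interferon gamma receptor chain Ifngr1 (-1.72 and -1.83), and none of their edgeR adjusted p exceeded 5.1e-07. Il4ra, the receptor chain for the IL-4 in the stimulus, was level, at 383 CPM at rest and 370 at 3 h in Cre-only cells on average.

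Between genotypes, the receptor chains with a call at rest were Ifnar1, Il10rb and Il9r, and at 3 h Ifnar1 and Il9r. Il9r, which pairs with the common gamma chain to activate STAT5 and STAT3, was at 93.8, 95.4 and 176 CPM in Cre-only and 24.1, 24.3 and 28.1 in knockout cells at rest. At 3 h it was at 34.4, 33.3 and 59.3 against 7.27, 11.3 and 9.48. All Runx1 c-k/o samples were below all Cre-only samples at both times, with log2 fold changes of -2.25 (SE 0.281) and -2.18 (SE 0.294; edgeR adjusted p = 0.00165 and 0.00159). Cre-only replicate 3 was the highest at both times. Ifnar1, a chain of the type I interferon receptor, was higher in Runx1 c-k/o cells, by 1.35 at rest (edgeR adjusted p = 3.25e-05) and 0.88 at 3 h (0.000415). Il10rb, shared by the IL-10 and lambda interferon receptors, was higher by 0.37 at rest (edgeR adjusted p = 0.0397), a call lost when any 1 resting sample was left out. Without both of the farthest libraries the Il9r difference at 3 h was not called, the exception among 14 alternatives. Ifnar1 and Il10rb lie on chromosome 16 with Runx1, 1.09 and 1.18 Mb from it. So do Ifnar2 (1.18 Mb, log2 fold change 0.42 at rest, edgeR adjusted p = 0.107) and Ifngr2 (1.04 Mb, 0.02, adjusted p = 0.924). Il10rb and Ifnar2 overlap in the annotation, so reads of the 2 could be mixed.

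Of the factors that restrain STATs, 12 of 18 went up and 5 down in Cre-only cells, and 13 up and 5 down in the knockout, where 38.6% and 36.4% of all tested genes rose and fell in Cre-only cells and 37.7% and 36.6% in the knockout. Socs1, an inhibitor of JAK kinases, rose by 3.54 and 3.40 on the log2 scale (edgeR adjusted p = 1.07e-06 and 1.41e-06), while Socs3, which blocks STAT3 signalling, fell by 1.74 in Cre-only cells (1.59e-06). At 3 h, Socs5 and the phosphatase gene Ptpn1 were lower in Runx1 c-k/o cells (-0.72 and -0.41, edgeR adjusted p = 0.00834 and 0.0276), the latter called in 7 of 14 alternatives. Usp18, which damps the type I interferon receptor, was higher, by 1.87 (edgeR adjusted p = 0.000107).

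Genes downstream of ISGF3, the complex of STAT2 with IRF9, had the largest median genotype difference of the 8 lists at both times. Of 23 such genes 3 were higher in Runx1 c-k/o cells at rest (Irf7, Oas1a and Usp18) and 18 at 3 h, and none was lower, where 0.731% and 1.47% of all tested genes were called higher. The median log2 fold change was 0.49 at rest and 1.35 at 3 h, where that of all tested genes was 0.03 and 0.01. Irf7, which amplifies interferon production, was at 50.6, 55.1 and 50.1 CPM in activated Runx1 c-k/o cells, against 13.6, 12.6 and 19.1 in activated Cre-only cells. The groups were well separated, with a log2 fold change of 1.78 (SE 0.147, edgeR adjusted p = 7.17e-05). In all, 19 of the 23 genes at rest and 20 at 3 h had every Runx1 c-k/o sample above every Cre-only sample. Over all tested genes 23.7% and 21.8% had no overlap in either direction. The count of 18 at 3 h ranged from 8 of 22 (only the 2 groups compared) to 23 over 14 alternatives, and was 22 without both of the farthest libraries. It was 10 without Cre-only replicate 1, and again 10 without Cre-only replicate 2. At rest the count of 3 ranged from 1 to 8, and was 7 without both of the farthest libraries and 1 when any resting sample but Runx1 c-k/o replicate 3 was left out.

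Activation lowered most of these genes. In Cre-only cells 19 of 23 fell and none rose (median log2 fold change -1.72), and in Runx1 c-k/o cells 12 fell and 4 rose (-0.71). With the RUVs factor 15 fell in Cre-only cells (median -0.94), and in Runx1 c-k/o cells 7 fell and 2 rose, with a median of -0.05. Oas1a, an RNA sensor, fell by 2.27 on the log2 scale in Cre-only cells and by 1.41 in Runx1 c-k/o cells (edgeR adjusted p = 1.38e-07 and 3.1e-06). Usp18 and Isg15, a ubiquitin-like modifier, rose in Runx1 c-k/o cells by 0.75 and 0.81 (0.000828 and 0.00676). The interaction was called for Zbp1 alone of the 23 (log2 difference 0.93, edgeR adjusted p = 0.0282), and that call was absent in 11 of 20 alternatives. The number of the 23 genes called for interaction ranged from 0 to 11 over these alternatives, all with the higher value in the knockout. It was 5 with DESeq2, 9 with the RUVs factor and 11 without both of the farthest libraries. Over all tested genes the interaction called 11 in the main fit, and 83, 146 and 187 in these settings in the same order. Stat2 mRNA also fell on activation, and its partner Irf9 was higher in Runx1 c-k/o cells at 3 h by 0.42 (edgeR adjusted p = 0.0235).

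Targets attributed to the other members passed the test mostly for activation. Of 10 genes of the STAT6 response 7 rose in Cre-only cells, 8 rose in the knockout and none fell, where 38.6% and 37.7% of all tested genes rose. With the RUVs factor 5 rose and 1 fell in Cre-only cells, and 5 rose and 2 fell in the knockout. Without it Xbp1, a plasma cell factor, rose by 1.96 and 1.92 on the log2 scale. In the STAT5 list, which shares Cish and Bcl2l1 with that of STAT6, 7 of 9 rose and 2 fell in Cre-only cells, whereas in the knockout 6 rose and 1 fell. Of all tested genes, 36.4% fell in Cre-only cells and 36.6% in the knockout. Ccnd2, a cyclin of the G1 phase, rose by 2.83 and 2.90, and the survival genes moved in opposite directions, Bcl2l1 rising by 4.22 and Bcl2 falling by 3.36 in Cre-only cells. Of 8 STAT3 targets 1 rose (Pim1) and 6 fell in Cre-only cells, although Stat3 mRNA rose, and 5 fell in Runx1 c-k/o cells. These included Bcl6, the germinal centre repressor (-2.02 and -1.97), and the immediate early gene Junb (-2.73 and -2.04). Among 4 tested STAT4 targets Tbx21, the T-bet gene, rose by 2.06 and 3.27, and Il12rb2 by 1.78 and 1.30. Tbx21 was low at rest, at 1.89 CPM in Cre-only and 0.883 in knockout cells on average. Ifng fell by 1.51 and 1.76 but was near the floor, at 1.02 CPM in resting Cre-only and 0.236 in activated knockout cells on average. No edgeR adjusted p among these activation values exceeded 0.00622. In the main fit only Junb of these 4 lists had a genotype call. It was higher at 3 h in Runx1 c-k/o cells by 0.84 (edgeR adjusted p = 0.0189, called in 9 of 14 alternatives). Il4ra was not called (edgeR adjusted p = 0.324 at rest and 0.164 at 3 h), but its genotypes did not overlap. At rest it was at 320 to 331 CPM in knockout and 365 to 397 in Cre-only samples, and at 3 h at 288 to 343 and 364 to 373. Of all tested genes, 23.7% at rest and 21.8% at 3 h did not overlap.

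**Figure D4:**
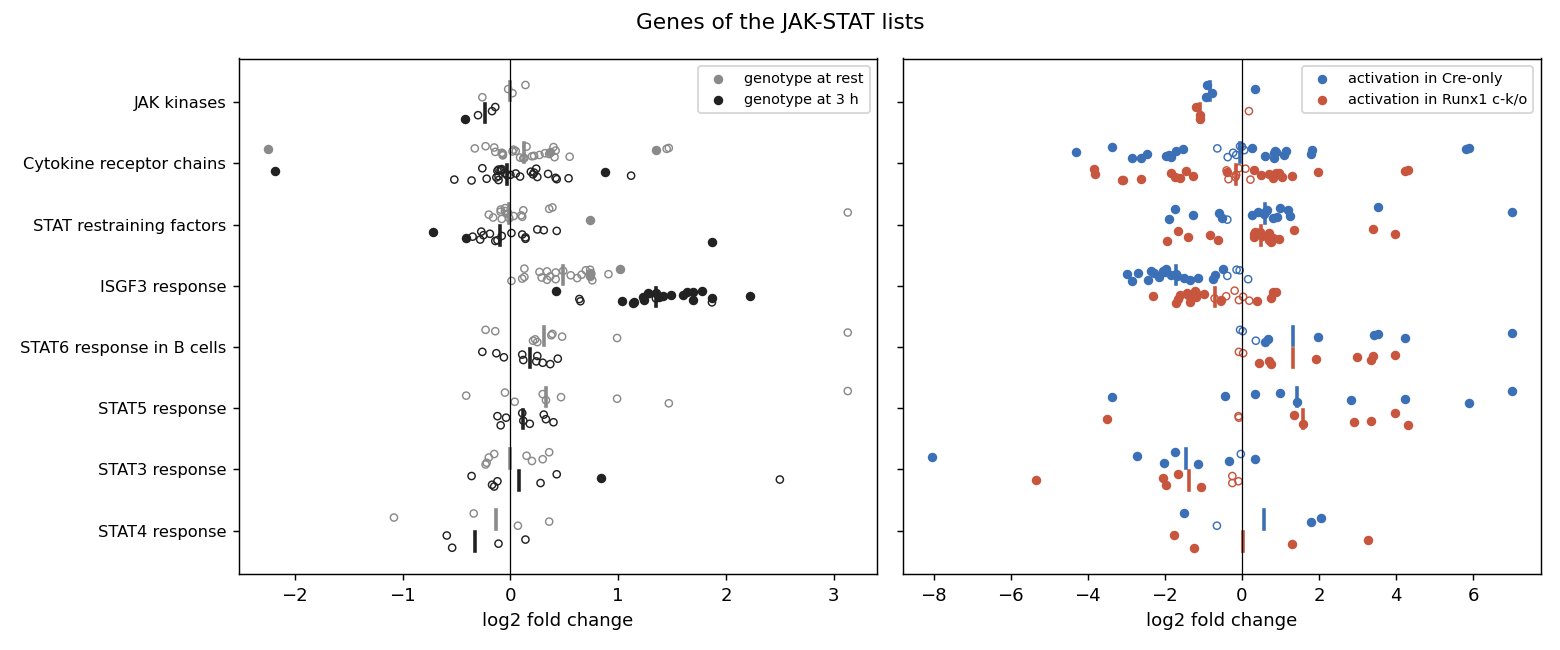
log2 fold changes of each tested gene in 8 JAK-STAT lists, for the knockout relative to Cre-only (left) and 3 h against rest (right), where filled points have an edgeR adjusted p under 0.05 and vertical bars mark list medians. The ISGF3 genes lie to the right of 0 at 3 h in the left panel, with a median of 1.35, and mostly to the left of 0 in the right panel.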

How the data were processed

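Per the labels and methods, poly(A) RNA from 12 samples was made into stranded TruSeq libraries. CASAVA 1.8.4 processed the reads, TopHat2 2.0.11 aligned them to mm9 (NCBIM37), and featureCounts assigned them to Ensembl genes. Handling of strand and of multiply mapping reads in counting is not given in the sources used here. The authors deposited whole-number counts per gene for 37991 identifiers, unfiltered and not normalized, of which 37205 had a symbol in the mm9 annotation used here. The ERCC controls that were added to the RNA had 0 entries in the table, so no change in total mRNA can be seen.

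Genes passing edgeR's filterByExpr (minimum count 10) were TMM-normalized and fitted with edgeR 4.0.16 (R 4.3.3) by the quasi-likelihood test, with a mean for each of the 4 groups. Contrasts compared the genotypes at each time, 3 h against 0 h in each genotype, and their interaction. Adjusted p-values are Benjamini-Hochberg values over the 13538 genes tested, and 0.05 was the threshold. RNA-seq depth was 14442251 to 23641552 counts per sample. Normalized CPM are counts scaled to TMM-adjusted library totals, and centred profiles used log2 CPM with a prior count of 2. The members and gene lists were chosen with earlier results of these data known. The text names all 6 members, Runx1 and the 3 genes with the closest profile to each member. From each list and comparison it names some of the up to 2 genes in each direction that passed with the lowest adjusted p. Of the genes overlapping or beside a member it also names some. Genes named beyond these rules were chosen after their values were seen. Alternatives were DESeq2 1.42.0 with its size factors, other filters, 1 RUVs factor, replicate blocks, fits of only the 2 groups compared and leaving out samples; leaving out the library farthest from its group at each time in Runx1 c-k/o cells was added after seeing the data. Levels per kilobase used exon lengths of GENCODE M1. Motifs were searched in RefSeq promoters of GRCm38.p6, which cover all 6 members. Protein sequences were not used here.

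Samples of different groups share replicate numbers. Deviations from the group mean correlated by 0.275, 0.176 and 0.144 between same-numbered Cre-only samples at 0 and 3 h, so these were taken as paired. The main fit had no term for this pairing, so its activation and interaction tests treat the samples as unpaired. Pairing was used only in the alternative with a replicate block within genotype. In Runx1 c-k/o samples the correlations were -0.254, -0.264 and 0.254, and between genotypes they lay from -0.0665 to 0.068, so there the numbers were not taken as pairs. Nothing in the labels says whether the 3 samples of a group came from separate mice. The authors describe them as 3 biological replicates for each cell type. The p-values measure the spread between these samples.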

Additional observations from a re-analysis of the deposited data

How the results depend on the processing

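Counts of genes changed depended on the model more than the activation calls of the STAT genes did. Genes changed between genotypes at rest were 202, and 378 with DESeq2's Wald test, 511 with 1 RUVs factor and 598 without both of the farthest Runx1 c-k/o libraries. At 3 h they were 375, and 709, 1012 and 914 in the same order, and 158 with only the 2 groups compared. The interaction called 11 genes, and 83, 146 and 187, and 4 with the replicate block within genotype. Leaving out 1 sample at a time gave 81 to 140 genes at rest, 180 to 617 at 3 h and 4 to 31 for the interaction. Among STAT genes it gave 0 to 1 changed at rest and 0 to 1 at 3 h, and all 6 in each activation comparison. The members changed at 3 h were 2 with DESeq2, 3 with the RUVs factor and 3 without both of the farthest Runx1 c-k/o libraries. Activation of Stat2 in Runx1 c-k/o cells went from -0.46 to 0.00 with the RUVs factor. Without a filter, activation in Runx1 c-k/o cells called 5 members. The causes were not tested.

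With the replicate block shared by the 4 groups no member was called at rest, 0 against 1 (Stat4, log2 fold change -0.66, edgeR adjusted p = 0.0624), although the genotypes share only the numbers. The block within genotype changed no activation call of a member, in the Cre-only samples, where the numbers pair, or in the others. Requiring at least 10 counts in every sample shifted the median of all genes by -0.158 on the log2 scale for activation in Cre-only cells and by -0.102 in Runx1 c-k/o cells, and the directions of the 6 members did not turn.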
